A study of Arabidopsis thaliana with 21 samples.

Results

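The transcripts described here are those of the chloroplast genome in late heart stage embryos of Arabidopsis thaliana. They were chosen as all gene models whose locus identifier starts with ATCG, the code of the chloroplast genome, and that had at least 10 read counts in 3 or more libraries. The rule kept 70 of the 71 such models with reads, out of 26496 models of all genomes. The model left out, ATCG01000, had 1 to 11 counts per library, with a median of 3. The set does not cover the whole chloroplast genome, for which RefSeq lists 87 protein-coding, 37 transfer RNA and 7 ribosomal RNA genes. Shares of chloroplast counts given below are those of the 70 members only. The member nearest to the limit, ATCG00590, had 9 to 233 counts, with a median of 82, and at least 10 in 20 libraries. All 70 members passed the filter on low counts, which left 18269 models for testing.

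The 21 libraries came from hand-dissected embryos of 7 genotypes with 3 biological replicates each. The mutants carry alleles of ASIL1 and ASIL2, which encode DNA-binding proteins of the trihelix family that repress seed maturation genes. They are the single mutants asil1-1 and asil2-1 and the double mutant asil1-1 asil2-1, all labelled Columbia-0, then the double mutant asil1-1 asil2-2, labelled as a mix of Columbia-0 and Landsberg erecta, and asil2-2, labelled Landsberg erecta. The wild types are Landsberg erecta (Ler) and Columbia-0 (Col-0). All plants grew under the same stated conditions. For asil1-1 asil2-2 the background and the mutations cannot be told apart, since it differs in both from either wild type.

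The chloroplast genome is a small circular genome left from the bacterial ancestor of the organelle, and each cell holds many copies. It encodes ribosomal and transfer RNAs, core subunits of both photosystems, of the cytochrome complex, of the ATP synthase and of the NDH complex, the large subunit of Rubisco, ribosomal proteins and a few other proteins such as a protease subunit. A bacterial-type polymerase, whose core the plastid encodes and whose sigma factors come from the nucleus, transcribes it together with a phage-type polymerase encoded in the nucleus. In Arabidopsis seeds the embryo turns green from about the heart stage, when its plastids start to become chloroplasts.

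Of the 70 members, 5 are given here with a gene name from the reference. It pairs ATCG identifiers with names through notes on nuclear genes that resemble a chloroplast gene. Aligning those nuclear genes to the 154478 bases of the chloroplast genome (Pltd, TAIR10.1) placed each on 1 named gene. The 5 are 2 subunits of the NDH complex, which passes electrons around photosystem I (ndhJ, ATCG00420, and ndhK, ATCG00430), an envelope membrane protein (cemA, ATCG00530), a protein of the large ribosomal subunit (rpl20, ATCG00660) and the plastid-encoded subunit of the Clp protease (clpP, ATCG00670). Other members are given by locus identifier only, with no name or role.

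Below are the first 60 coding bases of 4 of the 5, from RefSeq on TAIR10.1, shown to mark where each named gene starts. The locus identifiers were tied to these genes through the nuclear relatives, not through the bases shown. The start codon is in capitals. They lie at Pltd:49094-49153 (ndhJ), Pltd:49875-49934 (ndhK), Pltd:68806-68865 (rpl20) and Pltd:71823-71882 (clpP), all on the minus strand.
ndhJ: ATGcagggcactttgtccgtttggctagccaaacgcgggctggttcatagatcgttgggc
ndhK: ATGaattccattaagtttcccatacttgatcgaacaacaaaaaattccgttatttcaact
rpl20: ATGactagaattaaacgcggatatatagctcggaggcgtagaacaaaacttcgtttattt
clpP: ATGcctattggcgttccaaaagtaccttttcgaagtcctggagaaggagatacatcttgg
The ndhJ gene spans Pltd:48677-49153 and ndhK spans Pltd:49257-49934, so they are neighbours on 1 strand. The rpl20 gene spans Pltd:68512-68865. The clpP gene spans Pltd:69910-71882 with 591 bases of exon, and the window shown lies in its first exon.

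Total counts per library ran from 1.49 to 8.19 M (1 M is 1000000 counts), and chloroplast members took 193150 to 946024 of them. A pair of libraries stood apart. In asil1-1 asil2-1 replicate 1 the locus AT5G18610 took 45.7% of all counts, against at most 1.91% in the other 20, and the library's median correlation with the others over all models was 0.750. For asil1-1 asil2-2 replicate 2, the shallowest library, it was 0.851, while the other 19 lay between 0.934 and 0.967. Results that rest on either library are given also without both. Levels are given as CPM, counts per 1 M counts of a library scaled by TMM. ASIL1 had 1.28 to 5.75 CPM in the 9 libraries labelled asil1-1, and 32.4 to 67.8 CPM in the other 12. ASIL2 had 0 to 13.5 CPM in the 6 libraries labelled asil2-2, against 48.2 to 56.0 CPM in the 6 wild-type ones, but 37.6 to 61.5 CPM in the 6 labelled asil2-1, so its level does not check that label. Shares of the nuclear and marker lists are of all counts other than those of AT5G18610. The 10 embryo markers together took 0.0365 to 0.0670%. The 8 endosperm markers took 0.0138 to 0.0174% in asil1-1 asil2-1 and 0.0120 to 0.0161% in asil1-1 asil2-2, against 0.00633 to 0.00925% in Ler and 0.00952 to 0.011772% in Col-0, with no overlap between either double mutant and either wild type. The gap between asil1-1 asil2-2 and Col-0 was small, 0.01197 against 0.01177% in the nearest libraries. In that comparison 4 of 5 tested endosperm markers had higher estimates, and 3 of 5 without the libraries that stand apart. The single mutant asil1-1, at 0.011797 to 0.0156%, also lay above both wild types, by little in its lowest library. The endosperm share was 0.0107 to 0.0149% in asil2-1, which overlaps Col-0, and 0.00700 to 0.00836% in asil2-2, which overlaps Ler. The 10 seed coat markers took 0.0301 to 0.0385% in asil1-1 asil2-1 and 0.0314 to 0.0411% in asil1-1 asil2-2, against 0.0189 to 0.0249% in Ler and 0.0210 to 0.0283% in Col-0, again with no overlap, and the part of these markers in any result was not tested. Of the 5 endosperm markers tested, 1 was called higher in asil1-1 asil2-2 against Ler, 0 against Col-0 and 0 in asil1-1 asil2-1. Of the 10 seed coat markers, 2, 1 and 0 were called higher in the same comparisons. Of 9 embryo markers tested, 1, 1 and 0 were called lower. Beside these, 2.9, 2.28 and 0.0219% of all models were called. Without the libraries that stand apart the endosperm calls were 1, 0 and 1, the seed coat calls 2, 2 and 0 and the embryo calls 1, 1 and 0. The shares of all models were then 4.99, 5.29 and 0.142%. AGL62, IKU2 and MINI3 of the endosperm had 0 counts in 6, 8 and 9 libraries, DRN of the embryo in 5, and WOX2 of the embryo and DP1, TT2 and TT12 of the seed coat in 1 each.

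The chloroplast members took 9.20 to 13.7% of all counts in 20 libraries and 5.18% in 1. The share was 11.4, 11.4 and 11.9% in asil1-1, and 11.7, 10.9 and 11.3% in asil2-1. In asil1-1 asil2-1 it was 5.18, 12.1 and 12.2%, and in asil1-1 asil2-2 it was 13.7, 13.0 and 9.65%. In asil2-2 it was 11.6, 10.55 and 9.22%, in Ler 9.20, 11.2 and 11.1%, and in Col-0 10.7, 11.7 and 10.7%. The low library of asil1-1 asil2-1 is the one in which AT5G18610 took 45.7% of counts, and with that locus left out of the total its share was 9.53%. Its mitochondrial share was 2.94%, against 4.58 to 6.12% in the other 20 libraries, and with that locus left out it was 5.41%, against 4.61 to 6.20%, inside their range.

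The shares were compared between genotypes by tests that cannot pass 0.05 with so few libraries, so they do not show equal shares. The mean share was 11.6% ± 0.304 in asil1-1, 11.3% ± 0.432 in asil2-1 and 9.80% ± 4.0 in asil1-1 asil2-1 (SD, n = 3 each). Col-0, their wild type, had 11.05% ± 0.556 (SD, n = 3). Exact two-sided permutation tests gave p = 0.3 for asil1-1, 0.5 for asil2-1 and 1 for asil1-1 asil2-1. With AT5G18610 left out of the totals, asil1-1 asil2-1 averaged 11.3% ± 1.53 and Col-0 averaged 11.1% ± 0.562 (SD, n = 3 each, exact permutation p = 0.9), so the sign of this difference turned. The mean share of all counts was 12.1% ± 2.16 in asil1-1 asil2-2 (SD, n = 3), with exact permutation p = 0.3 against Ler and 0.5 against Col-0. The mean was 10.4% ± 1.17 in asil2-2, against 10.503% ± 1.13 in Ler (SD, n = 3 each, exact permutation p = 1). Ler itself differed from Col-0 with an exact permutation p of 0.6. With both libraries that stand apart left out, the exact permutation p was 0.2 for asil1-1 asil2-1, and for asil1-1 asil2-2 it was 0.6 against Ler and 0.8 against Col-0. The asil1-1 asil2-1 libraries left, at 12.1 and 12.2%, both lie above the Col-0 ones at 10.7, 11.7 and 10.7%. With 3 libraries against 3, or 2 against 3, no such p can go below 0.1, so these tests cannot pass 0.05. In whole embryos, fewer plastid-rich cells and less plastid RNA per cell cannot be told apart.

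**Figure D1:**
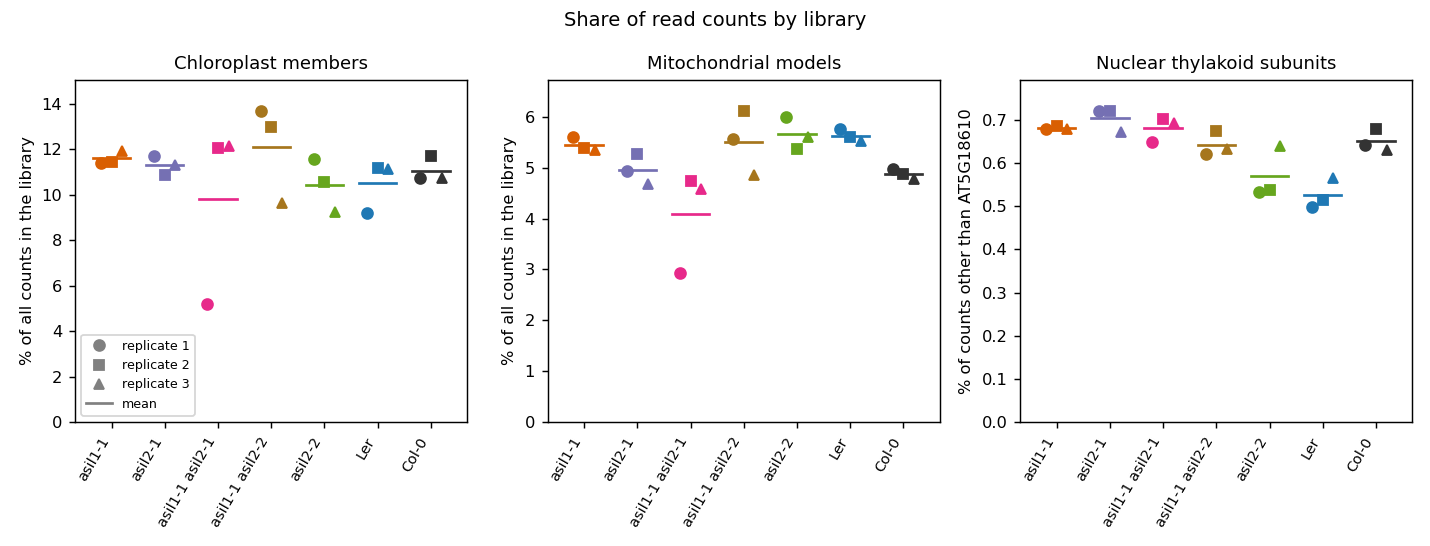
Percent of all counts in each library (y axes, from 0) taken by the 70 chloroplast members, by mitochondrial models and, as a percent of counts other than AT5G18610, by 32 nuclear genes of thylakoid complexes, for 7 genotypes (x axes); symbols are replicates and lines are means of 3. Chloroplast shares lie between 9.20 and 13.7% in 20 libraries and at 5.18% in asil1-1 asil2-1 replicate 1, while the nuclear thylakoid genes are at 0.497 to 0.566% in Ler and 0.631 to 0.679% in Col-0.

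A few loci held most chloroplast counts in 20 libraries, in nearly the same order. The 6 with the most counts were ATCG00020, ATCG00490, ATCG00350, ATCG00340, ATCG00280 and ATCG00680, which together took 58.7 to 65.4% of chloroplast counts in 20 libraries. The first 10 took 71.5 to 75.9%. These are shares of counts and not levels per length, since the lengths of unnamed loci were not used here and a longer transcript collects more reads. Median CPM of the members ran from 13.5 for ATCG00590 to 18516 for ATCG00020.

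ATCG00020 had 18175, 18721 and 20274 CPM in asil1-1, 20544, 17552 and 19372 CPM in asil2-1, 12012, 21683 and 21867 CPM in asil1-1 asil2-1, and 23093, 23620.1 and 12980.4 CPM in asil1-1 asil2-2. It had 17531, 15579 and 13975 CPM in asil2-2, 14666, 19467 and 18516 CPM in Ler, and 17926, 20291 and 17370.3 CPM in Col-0. The genotypes overlap, and the lowest library is the one that stands apart in asil1-1 asil2-1. ATCG00490 had 12636, 13138 and 13422 CPM in asil1-1, 13428, 12186 and 13523 CPM in asil2-1, 6781, 14625 and 13947 CPM in asil1-1 asil2-1, and 17288, 19137 and 11099.5 CPM in asil1-1 asil2-2. It had 12913, 11604 and 12299 CPM in asil2-2, 10452, 13187 and 12878 CPM in Ler, and 11897, 13422 and 11799 CPM in Col-0. Here too every mutant overlaps its wild type, and both libraries that stand apart are the extremes. Over the 7 comparisons, ATCG00020, ATCG00490, ATCG00500, ATCG00190, ATCG00180, ATCG00170 and ATCG00740 had log2 fold changes between -0.17 (ATCG00190, asil1-1 asil2-2 against Col-0) and 0.46 (ATCG00500, asil1-1 asil2-1 against Col-0, edgeR's adjusted p 0.240). That highest value was 0.21 without the libraries that stand apart.

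Across the 19 libraries that do not stand apart, the highest CPM of a member was 1.23 to 2.54 times its lowest, with a median of 1.55 times. The steadiest was ATCG00380, at 456 to 563 CPM. The widest ranges belonged to loci with few counts: ATCG00590 at 7.63 to 19.3 CPM, ATCG00700 at 51.6 to 125 CPM, and ATCG00210 at 19.96 to 46.8 CPM. The SD of log2 CPM within a genotype, pooled over genotypes in those 19 libraries, had a median of 0.19 over members and ranged between 0.08 and 0.32. The order of the 70 members was alike between libraries: Spearman's correlation of a library with the others had a median of 0.984 to 0.998 in 20 libraries and 0.873 in asil1-1 asil2-1 replicate 1. That is a description over loci that share a library and its depth.

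**Figure D2:**
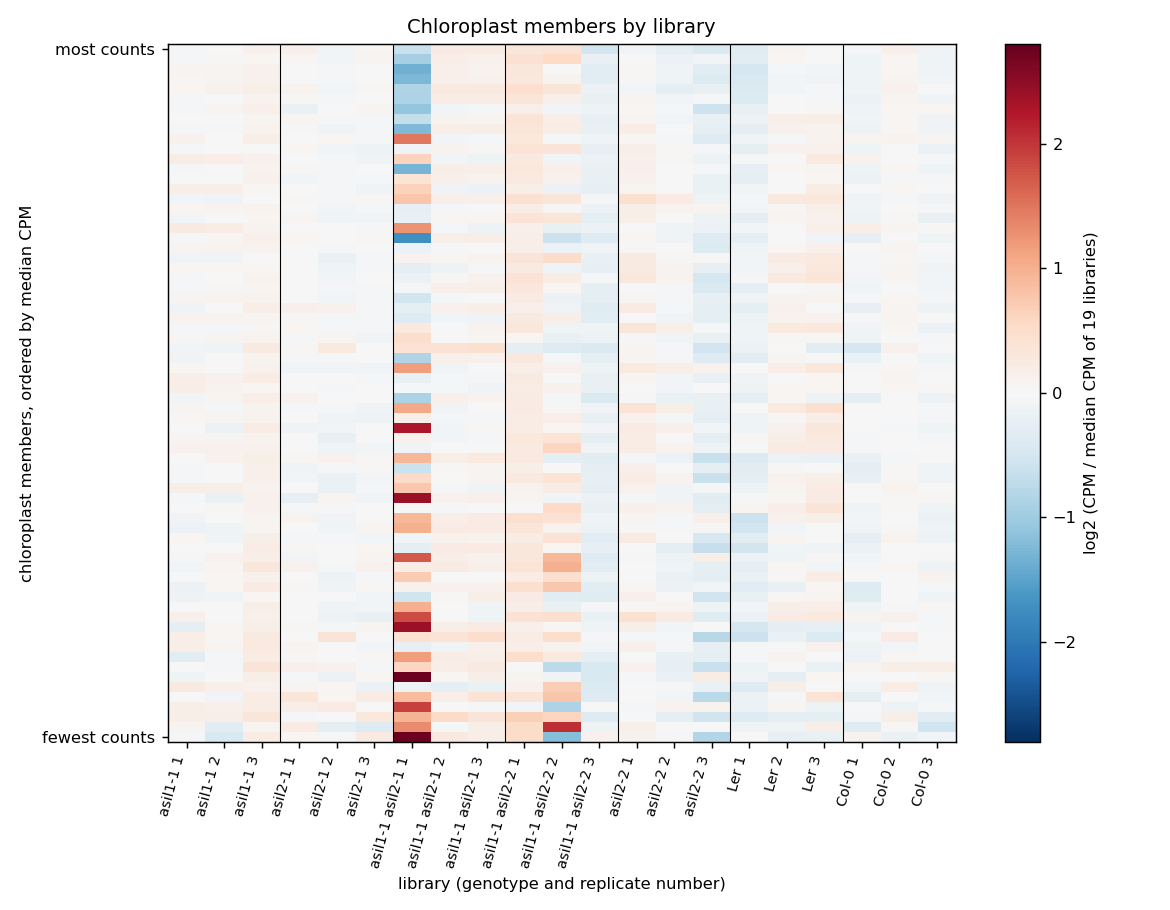
Log2 of each member's CPM over its median in 19 libraries (colour), for 70 chloroplast members (rows, from the most to the fewest counts) in 21 libraries (columns, by genotype). Most cells are pale, asil1-1 asil2-1 replicate 1 shows blue mainly at the top and red mainly at the bottom, with shifts between -1.72 and 2.74, and asil1-1 asil2-2 replicate 2 shows 1 dark red cell near the bottom.

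The named members can be set side by side per length. Per kb of exon, clpP had a median of 1934 CPM over the 19 libraries, cemA 1088, rpl20 645, ndhJ 422 and ndhK 293 CPM per kb. The range of cemA (776 to 1448) lies above that of rpl20 (533 to 754), which overlaps that of ndhJ (278 to 577). The range of clpP (1718 to 2233) lies above all others, and ndhJ and ndhK (202 to 370) overlap.

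clpP, the protease subunit, had 1183, 1206 and 1228 CPM in asil1-1, 1143, 1079 and 1123 CPM in asil2-1, 979, 1112 and 1141 CPM in asil1-1 asil2-1, and 1319.7, 1163 and 1016 CPM in asil1-1 asil2-2. It had 1281, 1231 and 1206 CPM in asil2-2, 1085, 1173 and 1273 CPM in Ler, and 1069, 1139 and 1117 CPM in Col-0. All 3 asil1-1 libraries lie above all 3 of Col-0, and the other mutants overlap their wild types. Its log2 fold change was 0.12 in asil1-1, with an SE of 0.12, and edgeR gave an adjusted p of 1.

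ndhJ had 384, 228 and 235 CPM in asil1-1 asil2-1, against 192, 198 and 179 CPM in Col-0. ndhK, the neighbouring subunit gene, had 396, 233 and 234 CPM in asil1-1 asil2-1, against 185, 204 and 181 CPM in Col-0. In both genes all 3 double mutant libraries lie above all 3 of Col-0, and replicate 1 is far above the other two. The log2 fold changes were 0.57 for ndhJ and 0.59 for ndhK, and edgeR gave adjusted p of 0.208 and 0.179, so neither was called. They were 0.29 and 0.30 with the libraries that stand apart left out. In the other genotypes ndhJ had 133 to 275 CPM and ndhK 137 to 251 CPM.

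rpl20, the ribosomal protein gene, had 383, 222 and 213 CPM in asil1-1 asil2-1, against 228, 244 and 226 CPM in Col-0, so only replicate 1 is high. cemA, the envelope protein gene, had 999, 866 and 729 CPM in asil1-1 asil2-2, against 722, 903 and 948 CPM in Ler and 712, 788 and 709 CPM in Col-0, with overlap in both cases. In none of the 7 comparisons was any of the 5 called.

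**Figure D3:**
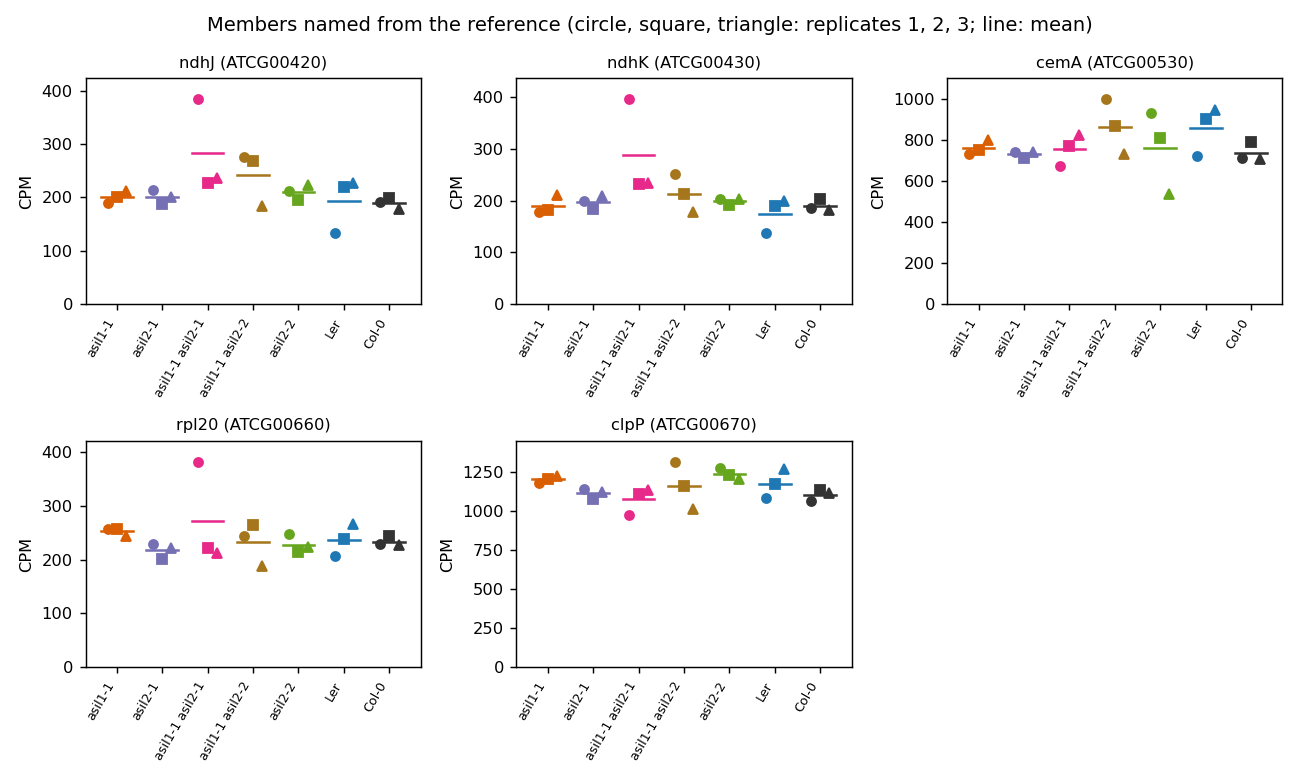
CPM by library (y axes, from 0) of the 5 members given with a gene name, for 7 genotypes (x axes); symbols are replicates and lines are means of 3. In ndhJ, ndhK and rpl20 the highest library is asil1-1 asil2-1 replicate 1, at 384, 396 and 383 CPM, and in clpP it is the lowest, at 979 CPM.

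The comparisons ask whether loss of ASIL1, of ASIL2 or of both changes chloroplast transcripts at this stage, and how the wild types differ. No member was called in any of them at an adjusted p under 0.05 by edgeR's quasi-likelihood test. All mutants labelled Columbia-0, and Ler, are set against the same 3 Col-0 libraries, so these comparisons share their controls. Without the 2 libraries that stand apart 0 of 70 members passed either, in each of the 7 comparisons and in the allele difference and the interaction. Of all models there passed then 0.191% for asil1-1, 0.0164% for asil2-1, 0.142% for asil1-1 asil2-1, 4.99% for asil1-1 asil2-2 against Ler and 5.29% against Col-0, 0.262% for asil2-2 against Ler and 12.8% for Ler against Col-0. For the allele difference it was 0.06% and for the interaction 0.109%. A missed threshold does not show that levels are equal: the SE of a member's log2 fold change had a median of 0.19 in each of the 7 comparisons. Without the 2 libraries that stand apart it was 0.12 to 0.13. For the allele difference and the interaction the median SE was 0.26 each, and 0.17 and 0.18 without those libraries.

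In asil1-1 against Col-0, 0 of 70 members passed, and 0 had an unadjusted p under 0.05, while 0.0328% of all models passed. The members' median log2 fold change was 0.09, against 0.00 over all models tested, and 65 of 70 had a higher estimate in asil1-1. In 15 members every asil1-1 library was above every Col-0 library and in 0 below, where 7.13% of all models were above and 6.62% below. With libraries scaled to their chloroplast counts the members' median was 0.01. Beside it, the mitochondrial share was 5.34 to 5.61% in asil1-1, against 4.78 to 4.98% in Col-0.

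The members with the lowest unadjusted p in asil1-1 were ATCG00065, ATCG00210 and ATCG00770. ATCG00065 had 96.5, 90.1 and 103 CPM in asil1-1, against 77.7, 80.6 and 85.6 CPM in Col-0, with no overlap. Its log2 fold change was 0.25 with an SE of 0.13, and edgeR gave an adjusted p of 1. ATCG00210 had 33.5, 33.6 and 37.0 CPM in asil1-1, against 28.3, 33.2 and 24.0 CPM in Col-0, and ATCG00770 had 471, 454 and 479 CPM in asil1-1, against 420.0, 438 and 417 CPM in Col-0. Each asil1-1 library of both loci lies above each Col-0 library, and neither locus passed.

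In the libraries labelled asil2-1, 0 of 70 members passed against Col-0 and 0 had an unadjusted p under 0.05, while 0.0109% of all models passed. The median log2 fold change was 0.04 over the members and 0.00 over all models tested, and 42 of 70 estimates were higher in asil2-1. Groups did not overlap for 5 members above and 6 below, where the share of all models was 5.8% above and 6.04% below. ATCG00220, which had the lowest p, had 65.5, 53.5 and 60.7 CPM in asil2-1, against 43.4, 52.3 and 48.8 CPM in Col-0. Its groups do not overlap, and its log2 fold change was 0.31 with an SE of 0.24. The next lowest p belonged to ATCG00630 and ATCG00140, with log2 fold changes of 0.21 and 0.17.

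In asil2-2 against Ler, again 0 of 70 members passed, 0 with an unadjusted p under 0.05, while 0.0712% of all models passed. The members' median log2 fold change was -0.03, against 0.01 over all models tested, with 26 of 70 estimates higher in asil2-2. Replicate 3 of asil2-2 was the lowest of 21 libraries in 22 members, or 31.4% against 4.52% of all models tested, and without it the members' median was 0.05. Only 1 member had all asil2-2 libraries above all of Ler, ATCG00440, and 0 had them below, where all models had 7.29% and 5.75%. ATCG00440 had 105, 89.6 and 94.8 CPM in asil2-2, against 67.8, 78.4 and 80.5 CPM in Ler. It was picked out after its values were seen. Without the libraries that stand apart its log2 fold change was 0.35 and edgeR's adjusted p was 0.27. The lowest p belonged to ATCG00650, ATCG00220 and ATCG00640, with log2 fold changes of -0.20, -0.31 and -0.19.

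The same locus ATCG00220 had the opposite sign in the other allele, 51.6, 48.8 and 30.7 CPM in asil2-2, against 45.8, 50.01 and 67.5 CPM in Ler, where the groups overlap. Its difference between the alleles, asil2-1 over Col-0 less asil2-2 over Ler, was 0.63 on the log2 scale with an SE of 0.34, and edgeR gave an adjusted p of 1.00. Of all models, 0.00547% passed for that difference, and 0 of 70 members did.

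In asil1-1 asil2-1 against Col-0, 0 of 70 members passed, while 0.0219% of all models passed, but 21 members had an unadjusted p under 0.05 with a higher estimate and 0 with a lower one. Of all 18269 models, 1845 had such a p with a higher and 1097 with a lower estimate. The members' median log2 fold change was 0.15, against 0.02 over all models tested, with a range from -0.33 to 1.58. Without the libraries that stand apart the median was 0.14 and the range -0.25 to 0.52. The members with such a p were then 6 with a higher estimate and 0 with a lower one. Of all 18332 models, 1180 had such a p with a higher and 1112 with a lower estimate. All 3 double mutant libraries lay above all of Col-0 in 19 members and below in 4, where all models had 8.36% and 9.84%. The interaction of asil1-1 and asil2-1 was called in 0 of 70 members and in 0.0109% of all models.

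The highest estimate, 1.58, was that of ATCG00590, which had 90.9, 16.5 and 15.0 CPM in asil1-1 asil2-1, against 14.4, 11.9 and 12.8 CPM in Col-0. With both of those libraries left out, its estimate was 0.27. Replicate 1 was far above the other libraries also in the 3 loci with the lowest p. ATCG00440 had 497, 104 and 109.9 CPM in asil1-1 asil2-1, against 87.5, 93.9 and 90.3 CPM in Col-0. ATCG00550 had 445, 69.5 and 74.7 CPM in asil1-1 asil2-1, against 66.9, 66.6 and 69.3 CPM in Col-0. ATCG01040 had 1158, 235 and 238 CPM in asil1-1 asil2-1, against 217, 223 and 222 CPM in Col-0. In each locus all double mutant libraries are higher, replicates 2 and 3 by little. Their log2 fold changes were 1.37, 1.51 and 1.29, and edgeR's adjusted p were 0.165, 0.167 and 0.169. Without the libraries that stand apart the log2 fold changes were 0.24, 0.09 and 0.10.

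Replicate 1 of asil1-1 asil2-1 differed from the other libraries in the make-up of its chloroplast counts. It was the highest of 21 libraries in 28 members and the lowest in 20, that is in 40.0% and 28.6% of them, against 28.4% and 30.2% of all models tested. Against the median of the 19 libraries, 14 members were higher by more than 1 on the log2 scale and 6 were lower by more than 1. Loci with many counts were low and loci with few were high: the 20 members with the most counts had a median shift of -0.65, with 6 above 0, and the 20 with the fewest a median of 0.92, with 16 above 0. The first 6 loci took 43.1% of its chloroplast counts.

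Among the high loci, ATCG00590 had 90.9 CPM in that library, against 7.63 to 19.3 CPM in the 19, from 233 counts. ATCG01010 had 1734 CPM there, against 322 to 449 CPM, and ATCG01130 had 6045 CPM, against 1695 to 2647 CPM. ATCG00190 had 2449 CPM, against 917 to 1229 CPM. Among the low loci, ATCG00580 had 293 CPM in that library, against 749 to 1102 CPM in the 19, and ATCG00350 had 4399.5 CPM, against 8125 to 13962 CPM. The other replicates of the genotype had 1091 and 1102 CPM of ATCG00580, against at most 1087 CPM in any other genotype. They had 12399 and 12068 CPM of ATCG00350, inside the range of the other genotypes. This library also had the lowest summed embryo markers, 0.0365% of counts other than AT5G18610, against 0.0417 to 0.0670% in the other 20, and the part of this in the shifts was not tested. With AT5G18610 left out of all libraries, 0 members were called in any comparison.

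**Figure D4:**
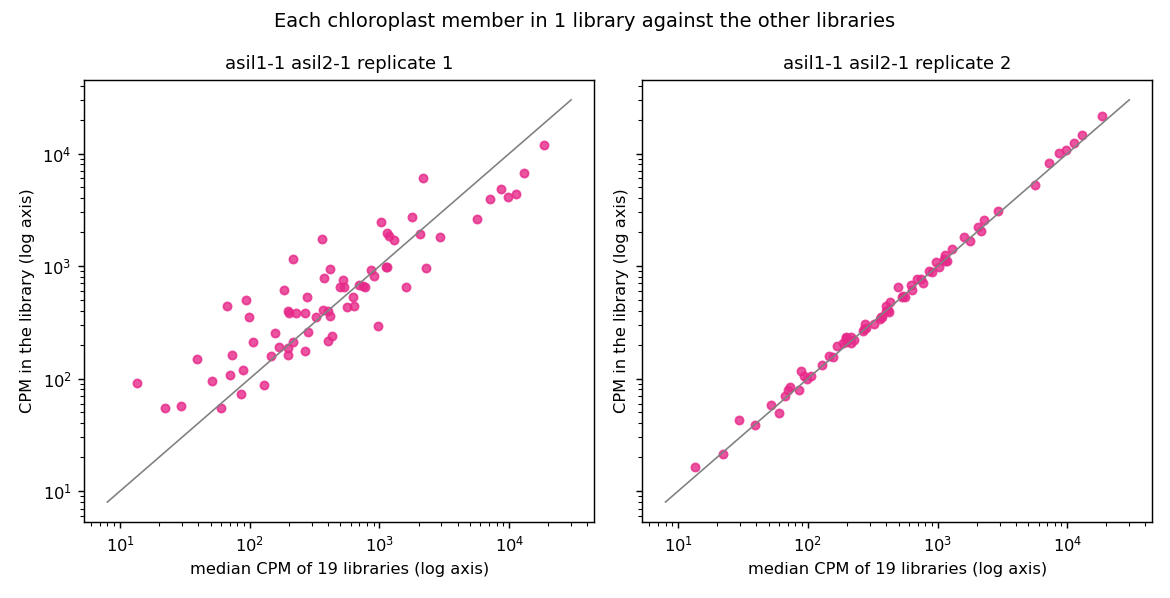
CPM of each of the 70 members (points) in replicate 1 (left) and replicate 2 (right) of asil1-1 asil2-1, against its median in 19 libraries, on log axes; the line marks equal values. In replicate 2 the points follow the line, while in replicate 1 the loci with the most counts lie below it and 14 members lie more than 1 log2 unit above it.

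The double mutant asil1-1 asil2-2 was set against both wild types, Ler and Col-0. In asil1-1 asil2-2 against Ler, 0 of 70 members passed, while 2.9% of all models passed, and the members' median log2 fold change was 0.07, against 0.00 over all models tested. Against Col-0, 0 of 70 members passed, while 2.28% of all models passed, and the medians were 0.11 over members and -0.02 over all models tested. No overlap with Ler was seen in 2 members above and 0 below, where all models had 11.3% and 12.5%. Against Col-0 it was 0 above and 1 below, where all models had 9.61% and 11.9%. The members' medians were 0.04 against Ler and 0.09 against Col-0 when the libraries that stand apart were left out. Replicate 1 was the highest of 21 libraries in 23 members, or 32.9% against 4.03% of all models tested. Replicate 3 was the lowest in 12, or 17.1% against 1.28%.

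The locus with the lowest p against Col-0, ATCG00690, rests on 1 library. It had 31.4, 92.1 and 20.1 CPM in asil1-1 asil2-2, against 20.2, 20.2 and 24.8 CPM in Ler and 17.5, 22.7 and 15.0 CPM in Col-0. Only replicate 2, the shallow library with 140 counts of it, is far above the wild types. The log2 fold change over Col-0 was 1.26 with an SE of 0.40, and edgeR's adjusted p was 0.109. Without the libraries that stand apart it was 0.48 with an adjusted p of 0.215. Against Ler, ATCG00700 had the lowest p, with 102, 124 and 84.6 CPM in asil1-1 asil2-2, 58.0, 78.4 and 68.1 CPM in Ler and 84.8, 104 and 89.9 CPM in Col-0. The double mutant does not overlap Ler but overlaps Col-0, and its log2 fold change over Ler was 0.59 with an SE of 0.18 and an adjusted p of 0.0912 (edgeR). Next came ATCG00600 and ATCG00300 against Col-0, at -0.48 and 0.47 on the log2 scale, and ATCG00210 and ATCG00300 against Ler, at 0.65 and 0.50, none of which passed. Leaving out both libraries that stand apart, these were -0.34 and 0.25 against Col-0, and 0.55 and 0.27 against Ler.

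In Ler against Col-0, 0 of 70 members passed, while 4.96% of all models passed, the largest share of all comparisons. The members' median log2 fold change was 0.03, against -0.01 over all models tested, with a range from -0.45 to 0.28. Groups did not overlap for 2 members above and 3 below, where all models had 14.5% and 15.9%. ATCG00700 again had the lowest p, and all 3 Ler libraries lie below all 3 of Col-0. Its log2 fold change was -0.45 with an SE of 0.18, and edgeR's adjusted p was 0.209. ATCG00650 had 226, 243 and 273 CPM in Ler, against 196, 217 and 197 CPM in Col-0, with no overlap, a log2 fold change of 0.28 and an adjusted p of 0.426 (edgeR). ATCG00520 followed with a log2 fold change of 0.23.

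**Figure D5:**
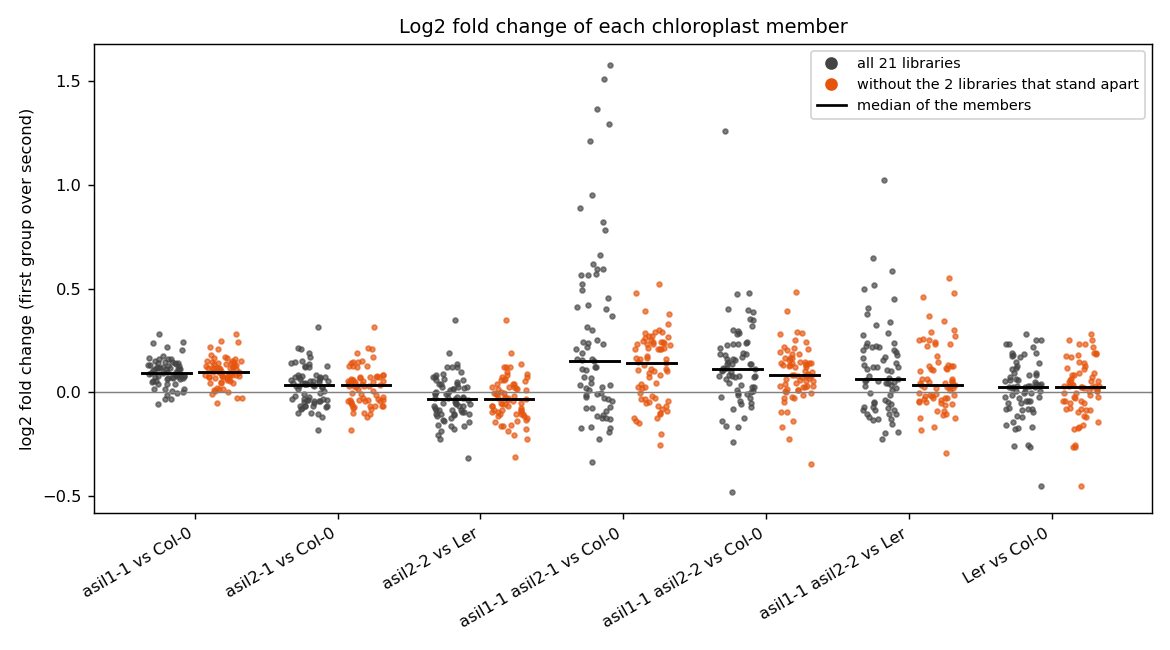
Log2 fold change (first group over second, y axis) of each of the 70 members (points) in 7 comparisons (x axis), from all 21 libraries (grey) and without the 2 libraries that stand apart (orange); black lines are medians of the members. Medians lie between -0.03 and 0.15, and the estimates above 1 in the asil1-1 asil2-1 comparison, up to 1.58, are absent without those libraries.

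Nuclear genes that serve the chloroplast genome were counted beside it. Of 21 genes of plastid transcription (the phage-type polymerase, sigma factors and proteins bound to the plastid polymerase), 20 were tested and 0 passed in any of the 7 comparisons. Their estimates were higher in 2 of 20 in asil1-1 asil2-1 against Col-0, with a median log2 fold change of -0.33. In asil1-1 asil2-2 they were higher in 2 against Ler and 3 against Col-0, with medians of -0.26 and -0.25. Without the libraries that stand apart the medians were -0.30, -0.22 and -0.15. In asil1-1, asil2-1 and asil2-2 against their wild types, 12, 4 and 5 were higher. Of 12 genes of plastid RNA processing and stability, 1 passed: PGR3 (AT4G31850), a pentatricopeptide repeat protein that binds chloroplast RNAs, fell in asil1-1 asil2-2. Beside this 1 of 12, 2.9% of all models passed against Ler and 2.28% against Col-0. Without the libraries that stand apart it was again 1 of 12, beside 4.99 and 5.29%. PGR3 had 8.98, 6.58 and 18.7 CPM in asil1-1 asil2-2, against 30.9, 31.8 and 28.5 CPM in Ler and 34.3, 28.8 and 29.3 CPM in Col-0, with no overlap. Its log2 fold change was -1.30 over Ler and -1.32 over Col-0, with edgeR's adjusted p at 0.00675 and 0.00808. Without the libraries that stand apart they were -1.12 and -1.13. In the other mutants PGR3 was not called: it had 35.1, 18.6 and 20.01 CPM in asil1-1 asil2-1 and 20.5, 23.7 and 23.5 CPM in asil2-2. Of the 12 RNA processing genes, 1 had a higher estimate in asil1-1 asil2-1 than in Col-0, with a median of -0.31. In asil1-1 asil2-2, 1 was higher against Ler and 1 against Col-0, with medians of -0.15 and -0.30. Without the libraries that stand apart the medians were -0.29, -0.03 and -0.14. In asil1-1, asil2-1 and asil2-2, 3, 2 and 7 were higher. Whether either list differs from other genes was not tested. No chloroplast member passed in asil1-1 asil2-2, and a link between PGR3 and the level of any member was not tested.

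Nuclear genes of thylakoid complexes, whose proteins assemble with those of the chloroplast genome, were counted in the same way. Of 32 such genes, 2 fell in Ler against Col-0 and 0 rose, beside 4.96% of all models called, and 29 had lower estimates. In the fit that leaves out both libraries that stand apart 13 fell, beside 12.8% of all models called. Whether the list differs from other genes was not tested. LHCB4.2 (AT3G08940), an antenna protein of photosystem II, had 53.7, 59.2 and 52.2 CPM in Ler, against 113, 136 and 113 CPM in Col-0. PSBO2 (AT3G50820), a subunit of the oxygen-evolving complex, had 50.4, 54.8 and 72.7 CPM in Ler, against 106, 113 and 109 CPM in Col-0. Neither overlaps, and their log2 fold changes were -1.13 and -0.88, and edgeR's adjusted p were 2.78e-05 and 0.00177. LHCB4.2 was also lower in asil1-1 asil2-2 than in Col-0, with a log2 fold change of -0.85 and an adjusted p of 0.00188 (edgeR). In that comparison it was the only 1 of the 32 called, beside 2.28% of all models. It had 73.2, 61.9 and 64.3 CPM there, and each of these libraries lies above all 3 of Ler. In asil1-1 asil2-2, 27 of 32 genes had higher estimates against Ler and 13 against Col-0, with medians of 0.28 and -0.02. Against Ler 0 passed, beside 2.9% of all models. Without the libraries that stand apart 2 rose against Ler, beside 4.99% of all models. In asil1-1 and in asil2-1, 31 of 32 had higher estimates than in Col-0, with medians of 0.09 and 0.14, and 0 passed in either. Of all 18269 models, 8963 and 9164 had higher estimates there. In asil2-2, 24 of 32 were higher than in Ler, with a median of 0.08. In asil1-1 asil2-1, 20 were higher than in Col-0, with a median of 0.04. Without the libraries that stand apart these were 30 and 0.12. In both mutants 0 passed.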

How the data were processed

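The authors deposited read counts per gene model, a table for each library in which models without reads are missing; these were set to 0. Bowtie 0.12.7, edgeR 3.0.8 and TAIR10 appear in the submitters' processing notes. How reads with several matches (such as those of the inverted repeat) and the strand were treated is not stated in the sources used here. The chloroplast gene rpl2 (ATCG01310), also named in the reference, is not among the 71 models with reads. Per the labels' protocols, embryos were dissected by hand and cleaned on Percoll, and total RNA was amplified with a Nugen Ovation kit.

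All 21 libraries entered a single edgeR 4.0.16 model of 7 groups (R 4.3.3, TMM scaling, filterByExpr with at least 10 counts and 15 in total). Contrasts were tested with quasi-likelihood F tests, and p-values were Benjamini-Hochberg adjusted over 18269 models, or 18332 without the 2 libraries that stand apart, and called under 0.05. The SE was taken from the log2 fold change and its F value. Shares were compared by exact two-sided permutation (scipy 1.17.1). Of 21 replicate pairs, 0 held identical counts. The labels call replicates biological without naming their source, so the spread may be partly technical. Nuclear relatives were aligned with tblastx 2.17.0. The model was tested on simulated counts.

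The members and lists were chosen with earlier results of these data known. The loci named are 5 with a name in the reference, 8 fixed loci, in each comparison the 3 with the lowest p where none passed, nuclear genes that passed, and the 2 ASIL genes. Loci named for having the most counts, the widest or steadiest range, no overlap, or the largest shift in a library that stands apart were chosen after their values were seen. A planned grouping by role and polymerase and a ranking per length were not made, since most loci have no name in the reference. One locus is not reported here. Replicate numbers were not treated as pairing libraries. The alternatives tried were RLE scaling, scaling to chloroplast counts, no filter, a replicate block, only the groups compared, DESeq2 1.42.0, no AT5G18610, and libraries left out; limma-voom (limma 3.58.1) with library weights and a TMM-scaled total for the share were added after the data were seen.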

Additional observations from a re-analysis of the deposited data

How the results depend on the processing

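The count of members called stayed at 0 with RLE scaling, with scaling to chloroplast counts, without the filter on low counts, without AT5G18610 and without the 2 libraries that stand apart, in each comparison, the allele difference and the interaction. DESeq2 called 1 member in each of 3 comparisons. In asil1-1 asil2-1 against Col-0 it was ATCG00590 (log2 fold change 1.70, adjusted p 0.0486). In asil1-1 asil2-2 it was ATCG00690 against Col-0 (1.36, 0.0283) and ATCG00700 against Ler (0.60, 0.0368). Of all 18269 models, DESeq2 called 273, 806 and 1028 in the same comparisons. In Ler against Col-0, limma-voom called 2 members, ATCG00650 (0.27, adjusted p 0.0437) and ATCG00700 (-0.45, 0.0312), beside 2711 of all 18269 models. The fit of only those groups called 1 member, ATCG00700, beside 2150 of all 16768 models. Leaving out each library in turn gave 0 to 6 members in asil1-1 asil2-1 against Col-0 (4 without replicate 2 and 6 without replicate 3, which leave replicate 1, the library that stands apart, as 1 of 2), and 0 without replicate 1. For asil1-1 asil2-2 it gave 0 to 3 against Col-0, 0 to 5 against Ler and 0 to 3 against both, each highest without replicate 3, which leaves the shallow replicate 2 as 1 of 2. The share of all models called in these fits with a library left out was not counted. Whether members were called more often than other models there is therefore not known. All 59 alternatives of the chloroplast share moved it by less than its spread. Of the log2 fold changes of named loci under alternatives, 1551 moved by less than their spread with no change of call, 50 moved by more, 16 passed the threshold, and 0 called values changed sign; estimates near 0 that were not called can change sign.

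The replicate block changed no call of a member: 0 members passed with it in any comparison. Of all models it called 20 instead of 4 in asil1-1 asil2-1 against Col-0, and 978 instead of 907 in Ler against Col-0. For the allele difference and the interaction the calls of all models stayed at 1 and 2. The correlation of same-numbered libraries was over 0.1 in every pair of no comparison (asil1-1 asil2-2 against Col-0 had 0.126, 0.0901 and 0.153). That cut-off cannot exclude a source shared by same-numbered libraries, and the labels name none. The share of protein-coding members alone, the ratio of genes by polymerase and its alternatives were not run, since most loci have no name here. For the same reason chloroplast scaling used all members. Depth limits the shallow library, asil1-1 asil2-2 replicate 2, most: it held 9 counts of ATCG00590.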
